A study of Mus musculus with 12 samples.

Results

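The genes described are 36 mouse genes of sterol and fatty acid synthesis, taken from a list of gene symbols. No measured value set the list, but it was chosen with earlier results of these data known. All 36 were among the 17362 genes of the table, and all 36 passed the filter on low values of at least 10 reads (at mean depth) in 3 or more libraries, which left 17086 genes. By role they form the mevalonate arm (7 genes), the squalene and sterol ring arm (11), the SREBP regulators (5), fatty acid synthesis (4), desaturation and elongation (6) and the LXR and sterol efflux genes (3). They were measured by RNA sequencing in 4 populations labelled as vessel types, with 3 libraries a population. Cells were sorted from crushed leg and iliac bones of untreated B6 mice, with no allele or agent in any group. CD200-high capillaries were gated as CD200Hi, EMCN-, Sca1+, CD31+ and CD45-, and type H vessels, a vessel type of growing bone rich in endomucin, as EMCN+ within Sca1+, CD31+ and CD45- cells. Arterial cells were gated as CD200- with Sca1+, CD31+ and CD45-. The libraries labelled sinusoidal were gated, per their label, on Sca1+, CD31+ and CD45- alone. As written this gate would include the other 3, which the marker values below do not bear out. Type H was not gated on CD200 and arterial not on EMCN, as labelled, so their gates can overlap. The triplicates came from 6 mice, per the labels.

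Cells make cholesterol from acetyl-CoA through mevalonate, which is built into isoprenoid units, joined to squalene and closed into the sterol rings. The same acetyl-CoA feeds fatty acid synthesis, whose products are then lengthened and given double bonds. When the membrane sterol level is low, SCAP carries the SREBP transcription factors from the endoplasmic reticulum to the Golgi for cleavage and the synthesis genes are switched on; INSIG proteins hold SCAP back when sterol is plentiful, and LXR, which senses oxysterols, drives sterol export through ABCA1 and ABCG1. In endothelium these pathways supply membranes and the lipids that signalling receptors sit in.

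The labels were set against marker genes, as shares of all reads in a library, since RNA of other cells can move with any gene below. The 16 pan-endothelial genes together took 0.300% to 0.600% of reads in CD200-high, 0.964% to 1.07% in type H and 0.181% to 0.243% in arterial libraries, but only 0.0374% to 0.0402% in the libraries labelled sinusoidal. The 12 sinusoidal endothelium genes, Stab2 and Lyve1 among them, were highest in type H (1.04% to 1.33%) and lowest in the libraries labelled sinusoidal (0.0191% to 0.0206%), with 0.0724% to 0.0789% in CD200-high, where Lyve1 had 0 reads, and 0.0583% to 0.106% in arterial libraries. The label sinusoidal is therefore used here only as a library name. Type H is likewise used as the name of a gate, since these sinusoidal endothelium genes, and the mural genes below, were highest there. CD200-high and arterial are too, since osteoblast genes took more of their reads than pan-endothelial genes did. Osteoblast genes (12) took 9.68% to 12.9% in CD200-high, 0.0263% to 0.116% in type H, 1.33% to 1.55% in arterial and 0.765% to 1.5% in the libraries labelled sinusoidal. Of 13 listed adipocyte and reticular stroma genes, the 8 analysed here ran at 0.0954% to 0.161% in CD200-high, where Cfd had 0 reads, 0.0939% to 0.254% in type H, 0.445% to 0.964% in arterial and 0.0336% to 0.0759% in the libraries labelled sinusoidal. B cell genes (10) ran at 0.0183% to 0.0316%, 0.0107% to 0.0177%, 0.173% to 0.455% and 1.20% to 1.34% in the same order of populations, and replication and mitosis genes (12) at 0.0200% to 0.0489%, 0.0251% to 0.0533%, 0.125% to 0.178% and 0.218% to 0.240%. Neutrophil genes (10) took 0.576% to 1.02% in CD200-high, 0.436% to 0.754% in type H, 2.12% to 3.23% in arterial and 0.655% to 1.13% in the libraries labelled sinusoidal, and erythroid genes (10) took 0.216% to 0.374%, 0.357% to 0.694%, 1.10% to 2.27% and 0.371% to 0.682%. Megakaryocyte genes (8) ran at 0.00374% to 0.0107%, 0.00479% to 0.00856%, 0.0595% to 0.203% and 0.372% to 0.498% in that order. Mural genes (10) were highest in type H, at 0.264% to 0.307%, against 0.0321% to 0.0489% in CD200-high, 0.0307% to 0.0407% in arterial and 0.00433% to 0.00757% in labelled sinusoidal libraries, where Myh11 had 0 reads. Macrophage genes (11) were highest in arterial libraries, at 0.0751% to 0.166%, and ran from 0.0106% to 0.0244% over the other 3 populations. The part of these cells in the results below was not tested, and in sorted bulk RNA fewer cells of a type and less RNA per cell cannot be told apart. The libraries held 7.33 to 21.6 M reads over the listed genes (M, 1e6 reads).

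In every comparison most of the 36 genes were not called, and in 5 of the 6 the called ones went in both directions. Levels are given as log2 CPM (counts per 1e6 reads, with 0.5 read added), differences as log2 ± SE, and a gene was called at an adjusted p under 0.05 from limma, adjusted over all 17086 genes tested. In CD200-high minus type H, 7 members were called, 3 higher (Scd1, Insig1, Scd2) and 4 lower (Mvd, Lss, Abcg1, Fdft1), where 13% of all genes tested were called, 6.66% higher and 6.35% lower. In CD200-high minus arterial, 4 were called, 2 higher (Scd1, Insig1) and 2 lower (Lss, Mvd), against 12.9% of all genes (4.75% higher, 8.15% lower). In CD200-high minus the libraries labelled sinusoidal, 11 were called, 6 higher (Acacb, Abca1, Scd1, Insig1, Insig2, Fdft1) and 5 lower (Lss, Mvd, Elovl6, Scap, Srebf2), against 28.7% of all genes (14.1% higher, 14.6% lower).

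Type H minus arterial had 9 members called, 5 higher (Abcg1, Abca1, Fdft1, Fads1, Elovl5) and 4 lower (Cyp51, Scd1, Idi1, Fdps), against 20.7% of all genes (7.96% higher, 12.7% lower). Type H minus the libraries labelled sinusoidal had 13 called, 5 higher (Acacb, Abca1, Fdft1, Elovl5, Abcg1) and 8 lower (Fasn, Cyp51, Idi1, Scd1, Elovl6, Scap, Fdps, Srebf2), against 28.6% of all genes (13.9% higher, 14.6% lower). Arterial minus the libraries labelled sinusoidal had 1 call, Abcg1 at a lower level, against 10.2% of all genes (8.09% higher, 2.14% lower). Without the 3 libraries labelled sinusoidal in the fit, a check chosen after seeing the data, 8 members were called in CD200-high minus type H (10.8% of all genes), 4 in CD200-high minus arterial (10.1%) and 6 in type H minus arterial (17.5%).

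**Figure D1:**
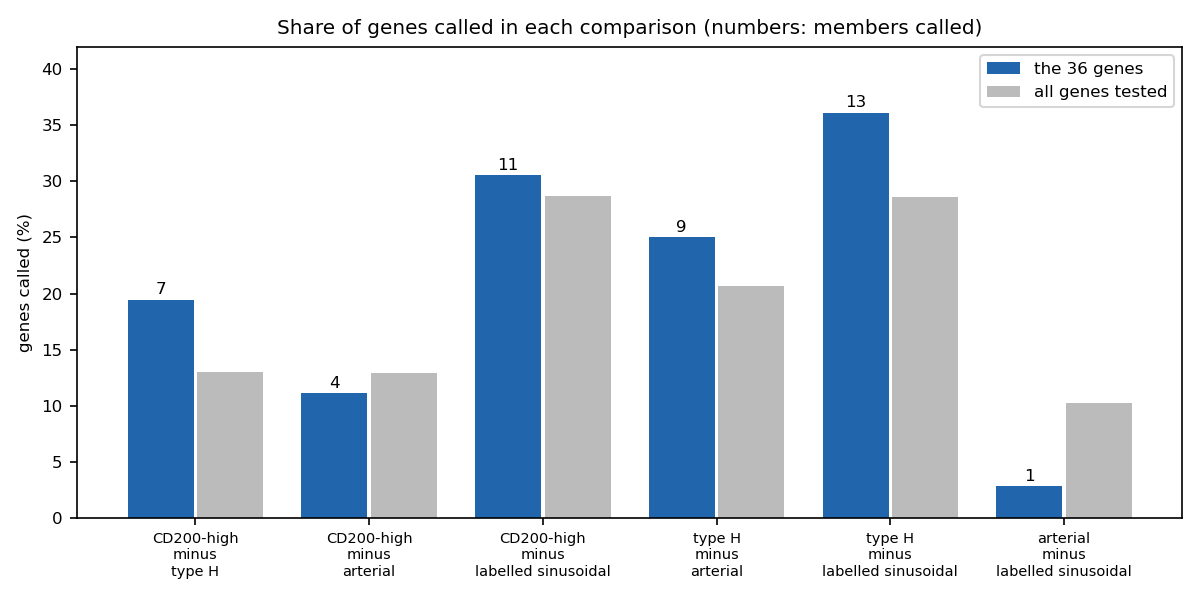
Share of genes called at an adjusted p under 0.05 (vertical axis, %) in each of the 6 comparisons, for the 36 genes (blue, number called on top) and for all 17086 genes tested (grey). The most members, 13, were called in type H minus labelled sinusoidal, where 28.6% of all genes were, and the fewest, 1, in arterial minus labelled sinusoidal, where 10.2% were.

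Across the 4 populations an F test from the same fit called 16 of the 36 genes, against 37.4% of all genes tested. The median difference of the members, beside that of all genes tested, was -0.01 beside -0.05 in CD200-high minus type H, -0.14 beside -0.22 in CD200-high minus arterial and -0.29 beside -0.22 in CD200-high minus labelled sinusoidal. It was -0.37 beside -0.20 in type H minus arterial, -0.27 beside -0.20 in type H minus labelled sinusoidal and 0.04 beside -0.02 in arterial minus labelled sinusoidal. Counted over genes, 19 members were called in at least 1 comparison and 17 in none, where 46.6% of all genes tested were called in at least 1. The counts by role below stand beside the same 46.6%. Against each of the other 3 populations, CD200-high was called higher in Insig1 and Scd1 (1.57% of all genes) and lower in Mvd and Lss (1.11%). Type H was called higher in Fdft1 and Abcg1 (2.89%) and lower in Scd1 (2.22%), and no member met this rule in arterial libraries or in those labelled sinusoidal. The 2 groups of libraries did not overlap in any of the 45 called differences. A call from 3 libraries against 3 favours such separation, and the share over all called genes was not counted. It therefore cannot be read as a trait of the members.

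**Figure D2:**
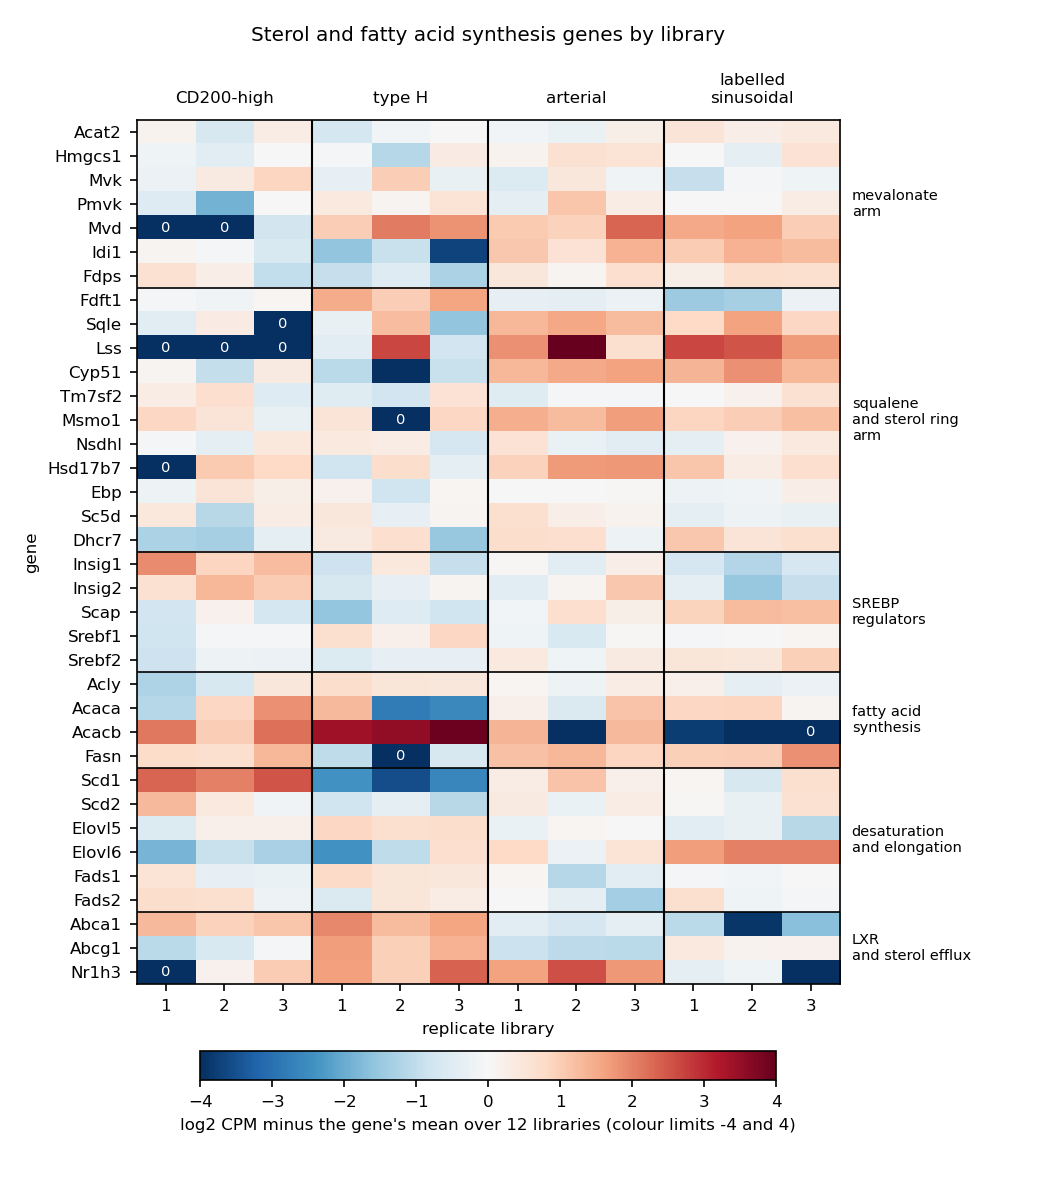
Each row is a gene, grouped by role, and each column a library; colour gives log2 CPM minus the gene's mean over 12 libraries, with limits at -4 and 4, and 0 marks a library with 0 reads. Scd1 and Insig1 are above their means in every CD200-high library, Lss has 0 reads in all 3, and Idi1, Cyp51 and Scd1 are below their means in every type H library.

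Of the 7 mevalonate genes, 3 were called somewhere: Mvd, with almost no reads in CD200-high libraries, and Idi1 and Fdps, both lower in type H. Mvd, the decarboxylase that makes isopentenyl diphosphate, had 0, 0 and 12 reads in CD200-high libraries, 117, 235 and 163 in type H, 106, 93 and 144 in arterial and 156, 230 and 123 in labelled sinusoidal libraries. As log2 CPM these were -4.44, -4.85 and 0.88 in CD200-high libraries, 2.59, 3.71 and 3.40 in type H, 2.66, 2.54 and 3.94 in arterial and 3.12, 3.22 and 2.59 in labelled sinusoidal libraries. All 3 CD200-high libraries lay below all 9 others. The fitted difference was -6.03 ± 1.33 against type H (adjusted p = 0.0111), -5.85 ± 1.33 against arterial (adjusted p = 0.0144) and -5.78 ± 1.33 against labelled sinusoidal (adjusted p = 0.00729), and its size rests on the 0.5 read added to the libraries at 0. Leaving out arterial replicate 3 ended the call against arterial (adjusted p = 0.0606), and a fit of only the populations compared ended it against type H (0.111) and arterial (0.0818).

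Idi1, the isomerase that turns isopentenyl into dimethylallyl diphosphate, had 5.48, 5.35 and 4.76 log2 CPM in CD200-high libraries, 3.81, 4.48 and 1.68 in type H, 6.47, 5.96 and 6.78 in arterial and 6.41, 6.76 and 6.64 in labelled sinusoidal libraries. The type H libraries were the lowest, CD200-high lay between, and arterial and labelled sinusoidal overlapped. Idi1 fell by 3.08 ± 0.57 in type H against arterial (adjusted p = 0.00281) and by 3.28 ± 0.57 against labelled sinusoidal (adjusted p = 0.00111), folds of 8.46 and 9.71. CD200-high minus type H gave 1.87 ± 0.57, which missed the threshold (adjusted p = 0.0518). Of its 100-base stretches, 15.8% also occur in a gene model outside the table, Gm13502, so part of its reads may be shared.

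Fdps, which joins the isoprenoid units to farnesyl diphosphate, had 5.62, 5.28 and 4.0 log2 CPM in CD200-high libraries, 4.08, 4.50 and 3.74 in type H, 5.44, 5.12 and 5.66 in arterial and 5.23, 5.69 and 5.64 in labelled sinusoidal libraries. Type H lay below arterial and labelled sinusoidal with no overlap, while CD200-high overlapped all 3. The difference was -1.30 ± 0.41 in type H minus arterial (adjusted p = 0.0409) and -1.41 ± 0.41 in type H minus labelled sinusoidal (adjusted p = 0.0215). The call against arterial ended without type H replicate 1 or 3, any arterial or any labelled sinusoidal library (adjusted p 0.0533 to 0.126), with the replicate number as a block (0.0544), under quantile normalization (0.0540), without the mean-variance trend (0.0625) and without the libraries labelled sinusoidal (0.0789). Against labelled sinusoidal it ended without type H replicate 1 or 3 or labelled sinusoidal replicate 2 or 3 (0.0518 to 0.0727). Fdps shares 20.5% of its 100-base stretches with Gm43738, an overlapping gene model on the same strand, whose own difference was -1.40 ± 0.40 in type H minus labelled sinusoidal, so how reads were split between them is uncertain.

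The other 4 mevalonate genes were called in no comparison. Population means ran from 4.63 to 5.29 log2 CPM for Acat2, the cytosolic thiolase that starts the pathway, and from 4.94 to 5.68 for Hmgcs1, the HMG-CoA synthase. Acat2 shares 28.9% of its stretches with its close copy Acat3 and is uncertain for that reason. Means of the kinases that act on mevalonate ran from 2.58 to 3.28 for Mvk and from 3.98 to 5.13 for Pmvk.

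In the squalene and sterol ring arm 3 of 11 genes were called: Fdft1 highest in type H, Lss without reads in CD200-high, and Cyp51 lowest in type H. Fdft1, squalene synthase, the first enzyme committed to sterols, had 5.46, 5.38 and 5.59 log2 CPM in CD200-high libraries, 7.0, 6.50 and 7.09 in type H, 5.19, 5.17 and 5.28 in arterial and 4.06, 4.19 and 5.28 in labelled sinusoidal libraries. Every type H library stood above the 9 others, and CD200-high stood above the remaining libraries. CD200-high minus type H was -1.39 ± 0.32 (adjusted p = 0.0137) and CD200-high minus labelled sinusoidal 0.97 ± 0.32 (adjusted p = 0.0401). Type H minus arterial was 1.65 ± 0.32 (adjusted p = 0.00362) and type H minus labelled sinusoidal 2.35 ± 0.32 (adjusted p = 0.000186).

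The call on Fdft1 in CD200-high minus type H ended without type H replicate 1 or 3 (adjusted p 0.0504 to 0.0558). That in CD200-high minus labelled sinusoidal ended without any CD200-high or arterial library, type H replicate 1 or 3, or labelled sinusoidal replicate 1 or 2 (0.0504 to 0.146). It also ended when rescaled to listed reads (0.130), with voom weights (0.0754), without the mean-variance trend (0.0665) and in a fit of only the populations compared (0.108). Exons of Fdft1 overlap those of Ctsb, the cathepsin B gene, on the opposite strand over 18.3% of their length, and the strand counted is not given in the sources used here. Ctsb, at far more reads, averaged 9.77 log2 CPM in CD200-high libraries, 11.3 in type H, 9.99 in arterial and 8.35 in labelled sinusoidal ones. Its differences were -1.53 ± 0.15 in CD200-high minus type H, 1.31 ± 0.15 in type H minus arterial and 2.95 ± 0.15 in type H minus labelled sinusoidal, the same signs as Fdft1, and its part in the Fdft1 counts was not tested.

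Lss, lanosterol synthase, which closes squalene epoxide into the first sterol, had 0 reads in all 3 CD200-high libraries. It had 22, 181 and 14 reads in type H, 95, 500 and 23 in arterial and 180, 224 and 105 in labelled sinusoidal libraries, or 0.21, 3.33 and -0.09, 2.51, 4.96 and 1.32, and 3.33, 3.18 and 2.36 log2 CPM in that order. The CD200-high libraries stood apart from all others, and within type H and arterial the replicates spread widely. Exons of Lss overlap those of 4930483K19Rik on the opposite strand over 3.53% of their length. That gene also had 0 reads in every CD200-high library. Its highest counts were 49 in type H, 129 in arterial and 89 in labelled sinusoidal libraries, each in replicate 2. Its part in the Lss counts was not tested. With 3 reads per library as the limit a count of 0 allows, Lss was at least 13-fold lower in CD200-high than in type H, at least 42.2-fold lower than in arterial and at least 26.1-fold lower than in labelled sinusoidal libraries, bounds that cover counting error only. The first 2 bounds rest on 1 library each: without type H replicate 2 the bound was 3.29-fold, and without arterial replicate 2 it was 13.1-fold. The adjusted p was 0.0125, 0.00308 and 0.00108 in these 3 comparisons. The first call ended on the log2 of CPM plus 1 (0.179) and in a fit of only the populations compared (0.0643).

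Cyp51, the lanosterol demethylase, had 3.81, 2.74 and 4.05 log2 CPM in CD200-high libraries, 2.62, -2.85 and 2.81 in type H, 5.01, 5.21 and 5.30 in arterial and 5.04, 5.52 and 5.01 in labelled sinusoidal libraries. Type H replicate 2 held only 2 reads of it. Cyp51 fell by 4.31 ± 1.18 in type H against arterial (adjusted p = 0.0225) and by 4.33 ± 1.18 against labelled sinusoidal (adjusted p = 0.0162). Without type H replicate 2 these were -2.46 (adjusted p = 0.00351) and -2.48 (adjusted p = 0.00199), both still called. The call against arterial ended without any of the 3 arterial libraries (0.0585 to 0.0654) and without the libraries labelled sinusoidal (0.0510), and that against labelled sinusoidal without its replicate 2 (0.0534). A fit of only the populations compared ended both (0.0839 against arterial and 0.0718 against labelled sinusoidal).

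The 8 other ring genes were called in no comparison. Msmo1, a sterol methyl oxidase, had 707, 0 and 708 reads in type H, and its lowest and highest population means were 1.84 and 6.14 log2 CPM, so that 1 library at 0 set the low mean. Hsd17b7, the sterol keto reductase, had 0, 317 and 125 reads in CD200-high, and Sqle, squalene epoxidase, 60, 133 and 0. Population means ran from 1.41 to 4.87 for Hsd17b7 and from 0.65 to 4.28 for Sqle. Dhcr7, which reduces the last precursor to cholesterol, ran from 2.22 to 3.94. Means ran from 4.69 to 5.16 for Tm7sf2, a sterol reductase, and from 4.33 to 4.44 for Nsdhl, a sterol dehydrogenase. Ebp, the sterol isomerase, ran from 5.59 to 5.95, and Sc5d, the sterol desaturase, from 5.82 to 6.45.

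**Figure D3:**
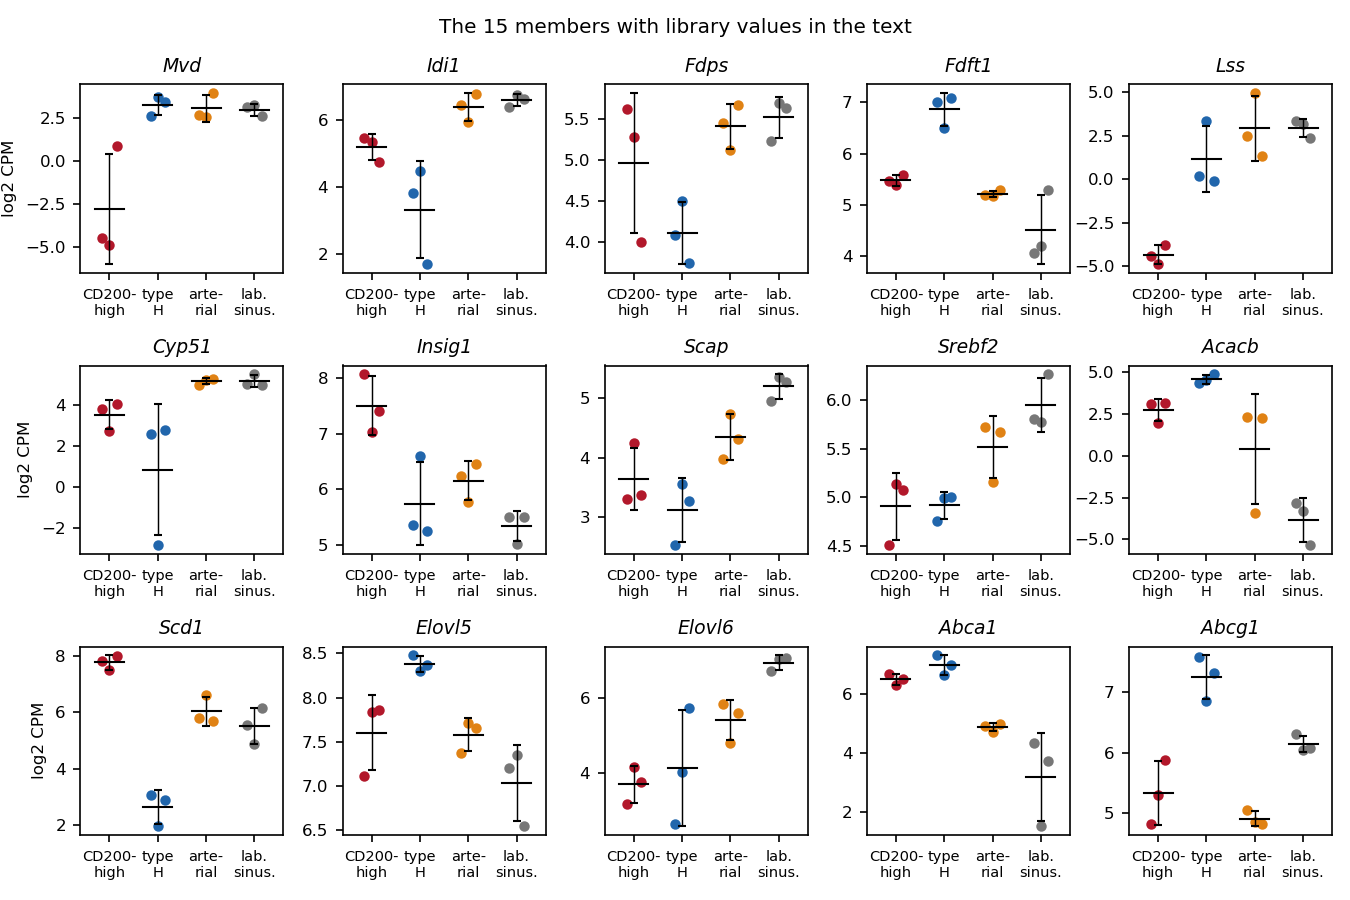
Levels of the 15 members called in at least 2 comparisons or among the 12 with the smallest F test p, in log2 CPM; points are libraries (n = 3 a population), lines population means and bars SD. Scd1 lies at 7.50 to 8.02 in CD200-high and at 1.95 to 3.08 in type H libraries, while Cyp51 in type H and Acacb in arterial libraries each have 1 point far below the other 2.

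Start regions of 4 of these genes are printed since they stand for the patterns seen: Idi1 and Cyp51, both lower in type H, Lss, without reads in CD200-high, and Insig1, the SREBP brake that was higher there. Each is the 250 bases before the gene's start, 5′ to 3′ on the gene's own strand, from RefSeq on GRCm38.p6: Idi1 at chr13:8885356-8885605 (+), Cyp51 at chr5:4104698-4104947 (-), Lss at chr10:76531355-76531604 (+) and Insig1 at chr5:28071162-28071411 (+). Capitals mark a CCAAT box, bound by NF-Y, on either strand (CCAAT or ATTGG), and in Insig1 also an E-box, CACGTG.
Idi1: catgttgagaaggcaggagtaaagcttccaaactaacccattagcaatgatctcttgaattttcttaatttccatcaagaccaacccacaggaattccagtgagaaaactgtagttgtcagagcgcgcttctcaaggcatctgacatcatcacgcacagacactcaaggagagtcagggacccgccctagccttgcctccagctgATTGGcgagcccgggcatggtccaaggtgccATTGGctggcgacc
Cyp51: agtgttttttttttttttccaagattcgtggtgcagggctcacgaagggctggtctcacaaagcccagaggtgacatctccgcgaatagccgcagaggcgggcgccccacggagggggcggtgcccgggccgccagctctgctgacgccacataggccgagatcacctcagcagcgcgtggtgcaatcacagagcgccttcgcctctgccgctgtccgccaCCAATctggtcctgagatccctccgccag
Lss: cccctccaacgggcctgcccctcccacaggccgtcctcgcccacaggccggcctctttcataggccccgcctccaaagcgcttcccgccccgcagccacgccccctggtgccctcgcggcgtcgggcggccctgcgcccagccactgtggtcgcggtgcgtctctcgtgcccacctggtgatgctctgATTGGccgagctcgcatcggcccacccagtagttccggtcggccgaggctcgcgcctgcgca
Insig1: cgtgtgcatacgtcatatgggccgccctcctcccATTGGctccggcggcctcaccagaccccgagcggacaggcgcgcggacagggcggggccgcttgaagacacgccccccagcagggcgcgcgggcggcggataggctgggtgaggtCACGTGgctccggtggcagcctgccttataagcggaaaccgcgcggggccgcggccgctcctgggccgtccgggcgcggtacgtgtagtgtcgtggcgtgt

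The CCAAT box begins 45 and 14 bases before the start in Idi1, 29 in Cyp51, 62 in Lss and 216 in Insig1, where the E-box begins at 101; none of these overlap. In the window from 250 bases before to 50 after the start, available for 29 of the 36 genes, a CCAAT box stood in 21 (72.4%), against 37.9% of the 27025 genes with a window. The GC box GGGCGG stood in 20 (69.0%), against 35.9%, CACGTG in 6 (20.7%), against 7.24%, and the sterol response element spelled TCACNCCAC in 1, Hmgcs1 (3.45%), against 1.22%, all counted on either strand. The set of all genes was not matched to the members on expression, and the first listed start of each gene was used. Scd1, Scd2, Fads1, Fdft1, Fdps, Abcg1 and Sqle had no window. These are matches of letters, and the called members and the members never called both hold them: Idi1, Cyp51 and Lss carry CCAAT, and so do Hmgcs1 and Nsdhl.

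The SREBP regulators gave 4 called genes of 5, with both INSIG genes higher and Scap and Srebf2 lower in CD200-high than in labelled sinusoidal libraries. Under a scaling to equal pan-endothelial medians, which moved the median of all genes to -5.10 in that comparison, the differences of both INSIG genes were below 0 as well. Insig1, which retains SCAP in the endoplasmic reticulum and is itself an SREBP target, had 8.07, 7.03 and 7.41 log2 CPM in CD200-high libraries, 5.36, 6.60 and 5.26 in type H, 6.25, 5.77 and 6.46 in arterial and 5.50, 5.03 and 5.51 in labelled sinusoidal libraries. All CD200-high libraries lay above the 9 others. The rise was 1.77 ± 0.38 against type H (3.40-fold, adjusted p = 0.00928), 1.35 ± 0.38 against arterial (2.54-fold, adjusted p = 0.0376) and 2.16 ± 0.38 against labelled sinusoidal (4.47-fold, adjusted p = 0.00132). The call against arterial was the least firm: it ended without CD200-high replicate 1 or 3, any arterial library or labelled sinusoidal replicate 1 or 3 (adjusted p 0.0517 to 0.125), with the replicate block (0.0621), when rescaled to listed reads (0.0651), without the mean-variance trend (0.0823) and without the libraries labelled sinusoidal (0.0647). That against type H ended in a fit of only the populations compared (0.0511).

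Insig2, the second retention protein, had 7.08, 7.78 and 7.49 log2 CPM in CD200-high libraries and 5.83, 6.13 and 6.56 in type H, then 6.01, 6.57 and 7.53 in arterial and 6.07, 4.95 and 5.55 in labelled sinusoidal libraries. CD200-high did not overlap type H or labelled sinusoidal but overlapped arterial. It was called against labelled sinusoidal (1.93 ± 0.39, adjusted p = 0.00351) and just missed against type H (1.28 ± 0.39, adjusted p = 0.0537).

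Scap, which carries SREBPs to the Golgi, had 3.31, 4.25 and 3.38 log2 CPM in CD200-high libraries, 2.53, 3.57 and 3.27 in type H, 3.98, 4.75 and 4.31 in arterial and 4.96, 5.36 and 5.28 in labelled sinusoidal libraries. In CD200-high, Scap fell by 1.55 ± 0.43 against labelled sinusoidal (adjusted p = 0.0184), and in type H by 2.07 ± 0.43 against the same libraries (adjusted p = 0.0033). The first call ended without CD200-high replicate 1 or labelled sinusoidal replicate 2 or 3 (0.0512 to 0.0688). Exons of Scap overlap those of 5830462I19Rik, a gene outside the table, on the opposite strand over 13.2% of their length. The part of that gene in the Scap counts was not tested. Srebf2, which encodes SREBP-2, the main activator of the sterol genes, had 4.50, 5.13 and 5.08 log2 CPM in CD200-high libraries, 4.76, 4.99 and 5.0 in type H, 5.72, 5.15 and 5.68 in arterial and 5.80, 5.78 and 6.27 in labelled sinusoidal libraries. CD200-high and type H both lay below labelled sinusoidal with no overlap: -1.04 ± 0.28 for CD200-high (adjusted p = 0.0153) and -1.03 ± 0.28 for type H (adjusted p = 0.0151). Each of these calls ended without labelled sinusoidal replicate 3 (0.0697 and 0.0711). Srebf1, whose SREBP-1c form favours fatty acid genes, was called nowhere, with means of 4.47 to 5.34.

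Of the 4 fatty acid synthesis genes, Acacb and Fasn were called and Acly and Acaca were not. Acacb, the acetyl-CoA carboxylase at the mitochondrion whose product curbs fatty acid oxidation, had 91, 55 and 60 reads in CD200-high libraries, 394, 411 and 453 in type H, 83, 1 and 45 in arterial and 2, 2 and 0 in labelled sinusoidal libraries. In log2 CPM this was 3.08, 1.95 and 3.16 in CD200-high libraries, 4.34, 4.51 and 4.87 in type H, 2.31, -3.42 and 2.28 in arterial and -2.84, -3.30 and -5.36 in labelled sinusoidal libraries. Type H was above every other library, and arterial replicate 2 was at the level of the libraries labelled sinusoidal. With 4 reads in all in the libraries labelled sinusoidal, the ratio of summed reads per depth was 101.7 for CD200-high (exact interval 39.1 to 377) and 375 for type H (146 to 1379), counting error only. Both calls against labelled sinusoidal stood at adjusted p = 0.0059 and 0.00109.

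Fasn, the fatty acid synthase, had 3.76, 3.66 and 4.34 log2 CPM in CD200-high libraries, 1.99, -5.17 and 2.36 in type H, 4.18, 4.36 and 3.88 in arterial and 3.97, 3.99 and 4.85 in labelled sinusoidal libraries. All 3 type H libraries were below the other 9, and replicate 2 had 0 reads, beside 77 and 79 in the others. Type H minus labelled sinusoidal was -4.54 ± 1.53 (adjusted p = 0.0441), and -2.09 without type H replicate 2 (adjusted p = 0.00795). The call ended without any 1 library of the other 3 populations (0.0533 to 0.12), without the mean-variance trend (0.0698) and in a fit of only the populations compared (0.136). Population means ran from 6.40 to 7.43 for Acly, which makes cytosolic acetyl-CoA from citrate, and from 0.91 to 2.86 for Acaca, the cytosolic carboxylase. Acaca had 229, 12 and 12 reads in type H libraries and shares 23.6% of its stretches with Gm5182, outside the table.

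Among the desaturases and elongases, Scd1 had the largest contrast between the populations. Scd1, the delta-9 desaturase that makes monounsaturated fatty acids, had 7.81, 7.50 and 8.02 log2 CPM in CD200-high libraries, 3.08, 1.95 and 2.89 in type H, 5.79, 6.63 and 5.69 in arterial and 5.56, 4.87 and 6.15 in labelled sinusoidal libraries. CD200-high stood above all others, type H below all others, and arterial overlapped labelled sinusoidal. CD200-high minus type H was 5.14 ± 0.40, a 35.2-fold difference (adjusted p = 1.14e-05), CD200-high minus arterial 1.74 ± 0.40 (3.34-fold, adjusted p = 0.0159) and CD200-high minus labelled sinusoidal 2.25 ± 0.40 (4.76-fold, adjusted p = 0.00158). Type H minus arterial was -3.40 ± 0.40 (adjusted p = 0.000187) and type H minus labelled sinusoidal -2.89 ± 0.40 (adjusted p = 0.000241). Only the call against arterial depended on single libraries, ending without arterial replicate 1 or 3 (adjusted p 0.0630 to 0.0647).

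Scd2, its close relative, had 8.53, 7.63 and 7.09 log2 CPM in CD200-high libraries and 6.44, 6.84 and 6.13 in type H, with 7.60, 6.97 and 7.52 in arterial and 7.27, 6.93 and 7.84 in labelled sinusoidal libraries. It was called once, in CD200-high minus type H (1.28 ± 0.36, adjusted p = 0.0361). That call ended without CD200-high replicate 1 or 2, type H replicate 1 or 3, arterial replicate 3 or labelled sinusoidal replicate 1 (0.0513 to 0.117), without the mean-variance trend (0.0907) and in a fit of only the populations compared (0.101). Scd1 and Scd2 share 0.879% of the stretches of Scd2.

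Elovl6 lengthens saturated and monounsaturated chains. It had 3.19, 4.17 and 3.77 log2 CPM in CD200-high libraries, 2.64, 4.03 and 5.73 in type H, 5.84, 4.81 and 5.61 in arterial and 6.72, 7.06 and 7.08 in labelled sinusoidal libraries. The type H libraries spread widely and overlapped CD200-high and arterial, while labelled sinusoidal was above all others. It fell in CD200-high by 3.25 ± 0.62 (9.49-fold, adjusted p = 0.00242) and in type H by 2.82 ± 0.62 (7.06-fold, adjusted p = 0.00515), both against labelled sinusoidal.

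Elovl5, which lengthens polyunsaturated chains, had 7.11, 7.84 and 7.86 log2 CPM in CD200-high libraries, 8.48, 8.30 and 8.36 in type H, 7.37, 7.71 and 7.66 in arterial and 7.20, 7.35 and 6.54 in labelled sinusoidal libraries. Type H exceeded every other library. Type H minus arterial was 0.80 ± 0.24 (adjusted p = 0.0367) and type H minus labelled sinusoidal 1.35 ± 0.24 (adjusted p = 0.0014), while CD200-high minus type H was -0.78 ± 0.24 (adjusted p = 0.0577). Dropping any of the 3 type H or 3 arterial libraries ended the call against arterial (0.0612 to 0.122), as did quantile normalization (0.135), rescaling to listed reads (0.0589) and a fit without the mean-variance trend (0.106). Fads1, the delta-5 desaturase, had 7.20, 6.90 and 6.88 log2 CPM in type H and 6.50, 5.27 and 6.01 in arterial libraries, a difference of 1.07 ± 0.31 (adjusted p = 0.0306) that ended without any type H library or arterial replicate 2 or 3 (0.0549 to 0.106). The Fads1 call also ended without the mean-variance trend (0.0710), in a fit of only the populations compared (0.0574) and without the libraries labelled sinusoidal (0.0614). Fads2, the delta-6 desaturase, was called nowhere (means 3.27 to 4.23).

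**Figure D4:**
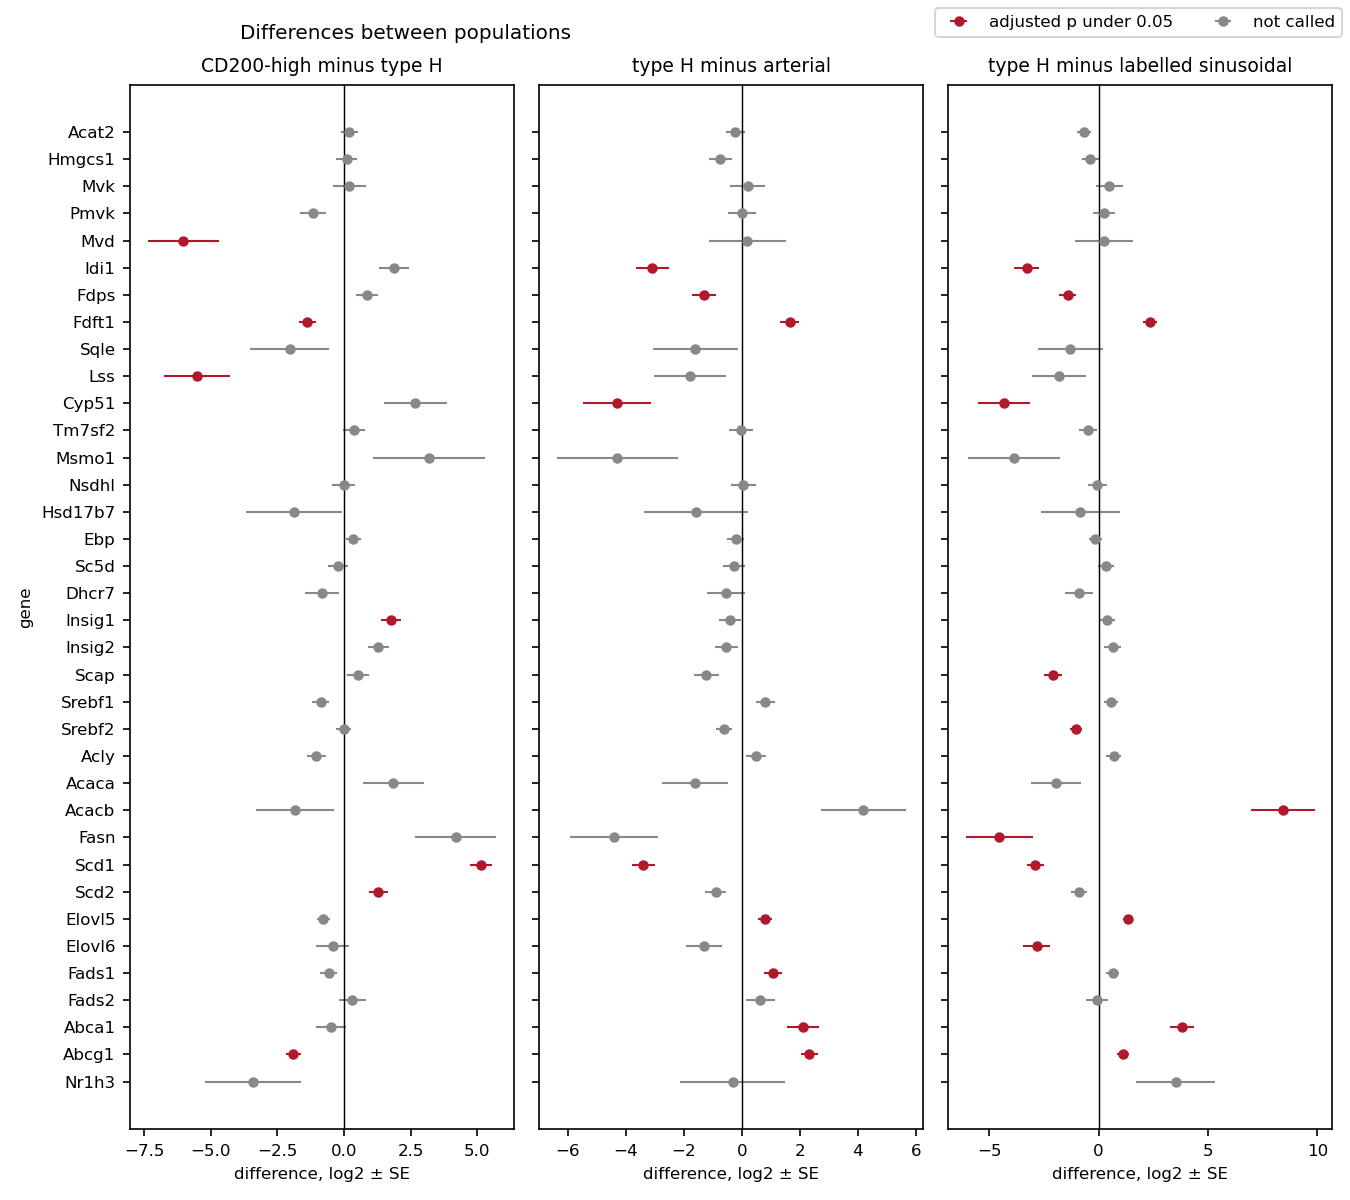
Differences in log2 ± SE for the 36 genes in 3 of the 6 comparisons; red points passed an adjusted p under 0.05 and grey points did not. Scd1 lies at 5.14 in CD200-high minus type H, and at -3.40 and -2.89 in type H minus arterial and minus labelled sinusoidal; Mvd lies at -6.03 in the first with a wide bar, and the Lss point there rests on the 0.5 read added to libraries at 0.

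Of the 3 LXR and sterol efflux genes, Abca1 and Abcg1 were highest on average in type H, and Nr1h3 was not called. Abca1, which exports cholesterol and phospholipid to lipid-poor apolipoprotein A-I, had 6.68, 6.30 and 6.49 log2 CPM in CD200-high libraries, 7.31, 6.65 and 6.96 in type H, 4.91, 4.70 and 4.97 in arterial and 4.31, 1.49 and 3.72 in labelled sinusoidal libraries. CD200-high and type H overlapped and both lay above the other populations. Abca1 rose in CD200-high against labelled sinusoidal by 3.32 ± 0.56 (9.99-fold, adjusted p = 0.00102) and missed the threshold against arterial (1.63 ± 0.56, adjusted p = 0.0802). In type H it rose by 2.11 ± 0.56 against arterial (adjusted p = 0.0192) and by 3.80 ± 0.56 against labelled sinusoidal (13.9-fold, adjusted p = 0.000336). The call of type H against arterial ended without type H replicate 1 or arterial replicate 1 or 2 (0.0521 to 0.0641).

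Abcg1, which passes cholesterol to lipoprotein particles, had 4.82, 5.30 and 5.87 log2 CPM in CD200-high libraries, 7.57, 6.85 and 7.31 in type H, 5.06, 4.86 and 4.81 in arterial and 6.30, 6.04 and 6.08 in labelled sinusoidal libraries. Type H was above all others, and labelled sinusoidal above CD200-high and arterial. CD200-high minus type H was -1.91 ± 0.28 (3.76-fold lower, adjusted p = 0.00091). Type H minus arterial was 2.33 ± 0.28 (5.03-fold, adjusted p = 0.000201) and type H minus labelled sinusoidal 1.10 ± 0.28 (adjusted p = 0.0117). Arterial minus labelled sinusoidal was -1.23 ± 0.28 (adjusted p = 0.0164), the one member called there. The last 2 calls ended without type H replicate 1 (0.0514) and without arterial replicate 2 or 3 or labelled sinusoidal replicate 1 (0.0566 to 0.0655), in that order. Nr1h3, which encodes LXR alpha, had 0, 65 and 55 reads in CD200-high and 56, 88 and 2 in labelled sinusoidal libraries, with population means from 0.15 to 3.99 log2 CPM.

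Scaling each library to an equal median of the pan-endothelial genes moves every gene of a library by the same amount, so it sets the zero of each comparison and leaves the members' place among all genes as it was. The median of all genes moved to -2.49 in type H minus arterial, -5.10 in CD200-high minus labelled sinusoidal and -6.04 in type H minus labelled sinusoidal. With that shift, 13 of the 45 called differences fell below 0: those of Fdft1, Insig1, Insig2, Scd1 and Abca1 in CD200-high minus labelled sinusoidal, of Fdft1, Elovl5, Fads1 and Abca1 in type H minus arterial, and of Fdft1, Elovl5, Abca1 and Abcg1 in type H minus labelled sinusoidal. These signs follow from the shift of all genes and say nothing particular to the members. The shift also ended the calls of Abcg1 (adjusted p = 0.149) and Fdft1 (0.464) in CD200-high minus type H, of Insig1 (0.972) and Scd1 (0.449) in CD200-high minus arterial, of Acacb in CD200-high (0.339) and type H (0.144) minus labelled sinusoidal and of Abcg1 in type H minus arterial (0.926).

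The SD over the 3 libraries exceeded 1 log2 for 5 members in CD200-high (13.9%) and 9 in type H (25%). It did so for 2 in arterial (5.56%) and 3 in labelled sinusoidal libraries (8.33%). Of all genes tested, 36.8%, 32.6%, 25.9% and 23.2% exceeded 1 in that order. Zero counts fell mostly in CD200-high and type H, as they did over all genes of the table, of which 14.5% to 16.3% had 0 reads in a CD200-high library, 12.5% to 18.3% in type H, 4.57% to 8.22% in arterial and 7.12% to 8.88% in labelled sinusoidal libraries. In all, 8 members had 0 reads in at least 1 library and 28 in none. CD200-high replicate 1 listed 0 reads for Mvd, Lss, Hsd17b7 and Nr1h3, replicate 2 for Mvd and Lss, and replicate 3, the shallowest library at 7.33 M reads, for Sqle and Lss. Type H replicate 2 listed 0 for Msmo1 and Fasn, labelled sinusoidal replicate 3 for Acacb, and no arterial library listed a member at 0. The median SD of members over 3 libraries was 0.53 log2 in CD200-high libraries, 0.57 in type H, 0.35 in arterial and 0.33 in labelled sinusoidal, beside 0.68, 0.58, 0.51 and 0.41 for all genes tested.

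Genes next to the 36 in the pathways came from a list of other sterol genes (25 tested) and other fatty acid genes (23 tested). Their calls went in both directions except in arterial minus labelled sinusoidal. There all were higher, 4% of the sterol and 13% of the fatty acid genes, against 10.2% of all genes (8.09% higher). In CD200-high minus type H and minus arterial, calls were 8% of sterol and 8.7% of fatty acid genes in each, against 13% and 12.9% of all genes. In CD200-high minus labelled sinusoidal they were 8% and 21.7%, against 28.7%. In CD200-high minus type H, 0 other sterol genes were called higher and 2 lower, and 2 other fatty acid genes higher and 0 lower. Mylip, an LXR target that degrades lipoprotein receptors, was lower (-2.36 ± 0.38, adjusted p = 0.00159) and so was Erlin2, which takes part in sterol-driven protein degradation (-1.74 ± 0.27, adjusted p = 0.00131). Slc25a1, the mitochondrial citrate carrier, was higher (1.54 ± 0.44, adjusted p = 0.0413), as was Tecr, which completes each round of chain elongation (0.74 ± 0.17, adjusted p = 0.0162). In CD200-high minus arterial, the counts were 1 higher and 1 lower among sterol genes and 0 and 2 among fatty acid genes, the largest being Hacd4, an elongation dehydratase (-2.21 ± 0.60, adjusted p = 0.0333), and Mid1ip1, an activator of acetyl-CoA carboxylase (-2.09 ± 0.54, adjusted p = 0.0264), then Cyb5r3, a cytochrome b5 reductase (1.22 ± 0.17, adjusted p = 0.00127), and Npc2, which binds cholesterol in lysosomes (-0.50 ± 0.14, adjusted p = 0.0379). In CD200-high minus labelled sinusoidal, they were 2 and 0 for sterol genes and 3 and 2 for fatty acid genes. Thrsp, a nuclear protein linked to lipogenesis, had 421, 755 and 676 reads in CD200-high and 43, 38 and 0 in labelled sinusoidal libraries (adjusted p = 0.0023). Me1, the malic enzyme that supplies NADPH, had 521, 658 and 358 reads in CD200-high and 94, 0 and 44 in labelled sinusoidal libraries (adjusted p = 0.0494). After these by size came Gpam, which starts triglyceride synthesis, lower (-5.02 ± 1.06, adjusted p = 0.00426) and the FADS-family gene Fads3 higher (4.23 ± 0.49, adjusted p = 7.41e-05).

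In type H minus arterial, 4 other sterol genes were called higher and 2 lower, and 0 other fatty acid genes higher and 4 lower. These were 24% of the sterol and 17.4% of the fatty acid genes, against 20.7% of all genes. Mylip had 8.71, 8.33 and 8.54 log2 CPM in type H and 4.86, 4.96 and 5.34 in arterial libraries (difference 3.47 ± 0.38, adjusted p = 0.000112), with no overlap. Hacd4 (-2.95 ± 0.60, adjusted p = 0.00508), Hacd2 (-1.96 ± 0.49, adjusted p = 0.0151) and the cholesterol-esterifying enzyme Soat1 (-1.86 ± 0.39, adjusted p = 0.00558) were lower. In type H minus labelled sinusoidal, the sterol genes gave 3 higher and 1 lower and the fatty acid genes 4 and 5. These were 16% of the sterol and 39.1% of the fatty acid genes, against 28.6% of all genes. Thrsp had 3674, 2132 and 2777 reads in type H and 43, 38 and 0 in labelled sinusoidal libraries (adjusted p = 0.000573), while Elovl7 had 2, 0 and 2 against 334, 265 and 630 reads (adjusted p = 0.0304). Gpam was lower there (-5.14 ± 1.06, adjusted p = 0.00334) and Mylip higher (2.91 ± 0.38, adjusted p = 0.000144). In arterial minus labelled sinusoidal, 1 sterol gene, Lipa, the lysosomal cholesteryl ester hydrolase, was higher (1.41 ± 0.35, adjusted p = 0.0229), and 3 fatty acid genes were higher and 0 lower: Thrsp, with 364, 1225 and 271 reads in arterial libraries (adjusted p = 0.0107), Fads3 (3.87 ± 0.49, adjusted p = 0.000432) and Agpat2, an acyltransferase (1.72 ± 0.50, adjusted p = 0.0482).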

How the data were processed

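The authors deposited 1 table of log2 values, 17362 mouse gene symbols by 12 libraries: log2 CPM on a scaled library size, 0.5 read having been added to each count, as the values themselves show (undoing the log gave whole reads within 0.01 for 100% of values). The scaling method is not given in the sources used here. The submitters' processing notes list R 4.3, featureCounts, STAR, Trimmomatic, SAMtools and deepTools without settings, and a human build for these mouse samples, so coordinates and sequences come from RefSeq on GRCm38.p6 only. Per the labels, reads were 150 bp.

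Differences were tested with limma 3.58.1 in R 4.3.3 on the deposited log2 values, with a mean-variance trend, 4 population means, all 12 libraries and no block, and Benjamini-Hochberg adjustment over the 17086 genes that passed the filter (10 reads at the mean effective size of 15.9 M, or 0.63 CPM, in 3 libraries; 276 removed). The fit was tested on simulated counts with the same spread setting for every gene. That setting does not reproduce single libraries at 0 beside well-covered replicates, so calls resting on such libraries were not covered. Shared 100-base stretches and exon overlaps used GENCODE M21 by gene name. Replicate libraries differed beyond counting error (chi-square per degree of freedom 54.5 to 128). The labels number mice 1 to 3 in every population. Same-numbered libraries deviated together at r of -0.04 to 0.06 over 12158 genes, and differently numbered ones at -0.08 to 0.04. With 3 libraries a population these values are tied to each other and cannot tell whether a number marks the same mice. The block is therefore an alternative. Library values are given for members called in at least 2 comparisons or among the 12 with the smallest F test p; values of Scd2, Insig2, Fads1 and Fasn were added after seeing them, and up to 4 called genes of the other pathway lists are named a comparison, by size. The members, lists and tests were chosen with earlier results of these data known. Floors use 3 reads per library.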

Additional observations from a re-analysis of the deposited data

How the results depend on the processing

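Over 10 alternative settings, 1 of them leaving out each of the 12 libraries in turn, and 1 added after the data were seen, 11 of the 45 called member differences kept their call and direction throughout, 26 lost the call under at least 1 alternative and 13 changed sign. All 13 did so only under the scaling to an equal pan-endothelial median, which moves all genes of a library alike, so these signs follow from the shift of all genes and say nothing particular to the members. It gave Abca1 -1.56, Fdft1 -3.91, Insig1 -2.72, Insig2 -2.95 and Scd1 -2.62 in CD200-high minus labelled sinusoidal. Values were Abca1 -0.17, Elovl5 -1.48, Fads1 -1.22 and Fdft1 -0.64 in type H minus arterial, and Abca1 -2.04, Abcg1 -4.74, Elovl5 -4.49 and Fdft1 -3.49 in type H minus labelled sinusoidal. That scaling moved the median of all genes to 0.92, -1.54, -5.10, -2.49, -6.04 and -3.57 in the 6 comparisons in their usual order. Members called under it came to 19 in CD200-high minus arterial (35.0% of all genes), 35 in CD200-high minus labelled sinusoidal (85.0%), 28 in type H minus arterial (69.1%), 34 in type H minus labelled sinusoidal (90.9%), 31 in arterial minus labelled sinusoidal (72.1%) and 35 in the F test (91.7%). A fit of only the populations compared gave 4 in CD200-high minus type H (7.8% of all genes, 13% in the main fit). In arterial minus labelled sinusoidal it gave 2 (16.6% of all genes, 10.2% in the main fit). Voom weights gave 2 in arterial minus labelled sinusoidal (13.4% of all genes). Leaving out 1 library gave 1 to 6 calls in CD200-high minus arterial, the lowest without arterial replicate 3 (1) and replicate 1 (2). Of all genes, 8.18% and 7.92% were called in these 2 fits, against 12.9% in the main fit. Leaving out 1 library gave 4 to 11 in type H minus arterial, the lowest without an arterial library (5, 4 and 5). Of all genes, 15.1%, 16.2% and 15.1% were called in these fits, against 20.7% in the main fit. In arterial minus labelled sinusoidal it gave 0 to 2, with 0 without arterial replicate 3, where 5.96% of all genes were called. Treating the same mouse numbers as a replicate block gave 7, 3, 11, 9, 13 and 1 calls and 16 in the F test. Of all genes, the block called 12.4%, 12.1%, 27.8%, 20.1%, 28.1% and 9.80%, and 35.9% in the F test. It ended 2 calls, Insig1 in CD200-high minus arterial and Fdps in type H minus arterial. Calls ended came to 10 in fits of only the populations compared, 7 each under equal pan-endothelial medians and without the mean-variance trend, 4 without the libraries labelled sinusoidal, 3 when rescaled to listed reads, 2 under quantile normalization, 1 each with voom weights and the log2 of CPM plus 1, and 0 without the filter. The sizes of the differences of Lss, Mvd and Acacb are uncertain, since their low populations held few or no reads. The cause of these changes was not tested.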
